A study of Homo sapiens with 6 samples.

Results

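Protein tyrosine phosphatase genes were followed in RL cells, a long-cultured human line of malignant B cells, after treatment with LY317615. Enzastaurin is the other name of this compound, an inhibitor of protein kinase C that was made with the beta isoform as its target. The genes were taken by symbol: those named PTPN with a number, PTPR with a letter or PTP4A, together with PTPRCAP, which encodes a partner of the phosphatase CD45. Pseudogenes were left out, and the brightest probe set stood for each gene. This gave 37 genes of 18417 with a probe set of their own on the Affymetrix Gene 1.0 ST array. The control group held 3 arrays of untreated RL cells, also labelled 48 h, for which no vehicle is named. The treated group held 3 arrays of RL cells given LY317615 for 48 h at a labelled 2.5 mM, a unit that could not be checked here. All arrays came from 1 cell line. The labels do not say whether replicates were separate cultures, and the p-values then rest on the spread between arrays, which may be technical.

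Protein tyrosine phosphatases remove phosphate from tyrosine residues and so oppose tyrosine kinases. Receptor-type members (PTPR) cross the membrane, whereas non-receptor members (PTPN) lie inside the cell and are directed to their substrates by other domains. In B cells CD45, encoded by PTPRC, keeps Src-family kinases ready to signal, and SHP-1, encoded by PTPN6, is recruited by inhibitory receptors such as CD22 to end signalling. SHP-2, encoded by PTPN11, mostly helps signals to reach Ras, and the PTP4A enzymes are small, prenylated phosphatases that bind CNNM magnesium transporters.

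Of the 37 genes, 6 were higher and 5 lower after LY317615 and 26 did not pass an adjusted p of 0.05 (limma, Benjamini-Hochberg adjustment over all 18417 genes). PTPN7, a phosphatase of ERK and p38 kinases in blood cells, fell the most, 1.85-fold, and PTPN18, a phosphatase of the PEST family, rose the most, 1.55-fold. PTPRE, PTPN2, PTP4A3 and PTP4A1 also fell, and PTPRN2, PTPN22, PTPN14, PTPRH and PTPN5 also rose. Of all genes, 35.7% passed, 14.2% as higher and 21.4% as lower, so the share of phosphatase genes that passed (29.7%) was near that of the array as a whole. None of the 37 changed by 1 or more on the log2 scale. Their median log2 fold change was 0.03, against 0.02 for all genes. The median size of change was 0.20 in both. Once all arrays were scaled to a common median, 3 phosphatase genes were higher and 10 lower (8.27% and 26.4% of all genes), and after cyclic loess 4 and 5 were (12.9% and 17.8% of all genes). The count of higher genes also rested on single arrays, with 2 without untreated replicate 2, 1 without untreated replicate 3 and 3 without treated replicate 3 (8.503%, 9.312% and 11.49% of all genes).

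**Figure D1:**
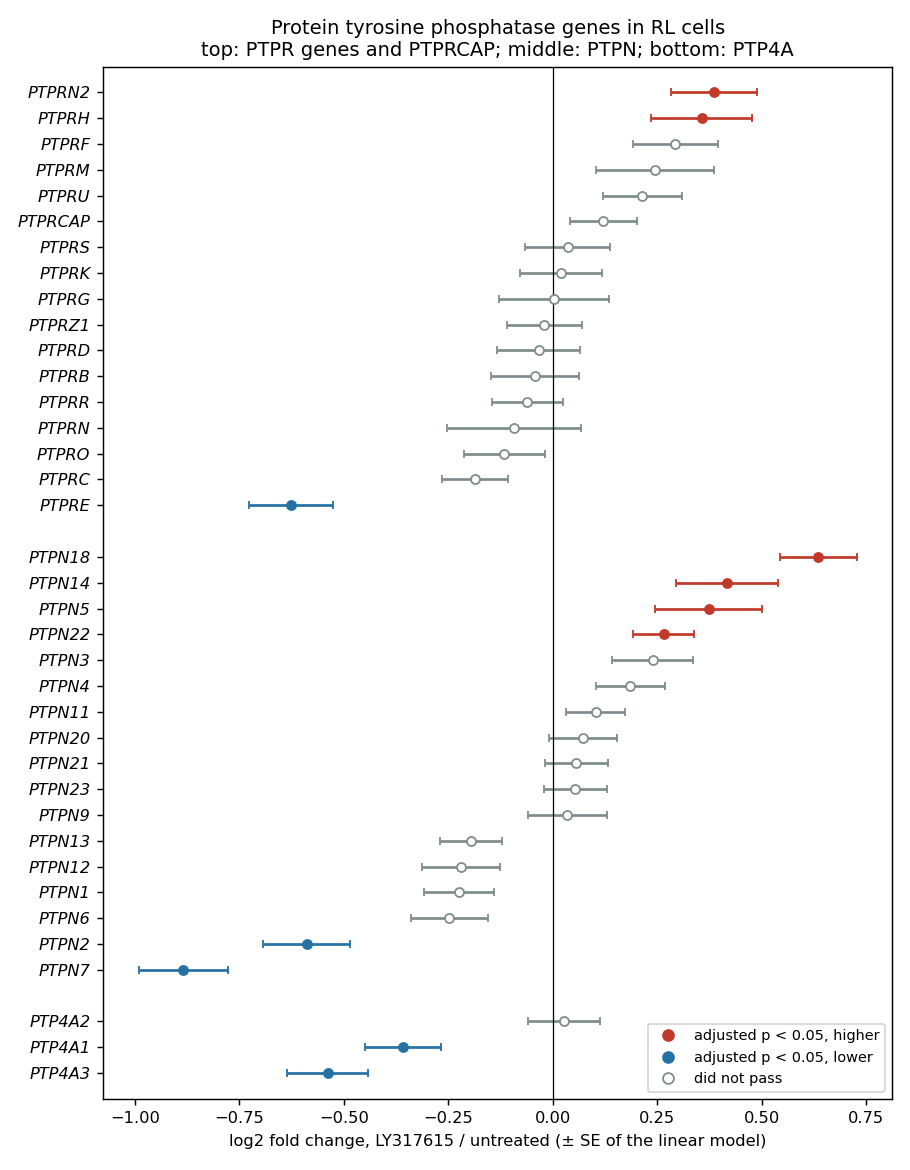
Log2 fold change (LY317615 over untreated, x axis) of each of the 37 phosphatase genes, with bars of 1 standard error from the linear model; filled red and blue points passed an adjusted p of 0.05. PTPN7 lies farthest to the left at -0.88 and PTPN18 farthest to the right at 0.64, and the uncalled genes lie between -0.25 and 0.29.

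Some protein-coding genes of these families had no probe set of their own here: PTPRA shares a probe set with VPS16, and PTPRJ, PTPRQ and PTPRT were not analysed here. The measured B-cell markers CD79A, CD79B, MS4A1, PAX5, CD22 and BLK were bright in untreated cells (percentiles 87.5 to 98.9 among all genes). Of these 6 markers, 5 fell. All 6 lay above the median untreated intensity of all genes, where 39% of genes fell, against 21.4% of all genes. The log2 of their summed linear intensities, called the summed level below, was 13.32 to 13.39 untreated and 12.81 to 12.94 treated. Of the germinal-centre markers, MME rose by 2.16 and BCL6 fell by 1.23 on the log2 scale, and their summed level was 12.15 to 12.27 untreated and 12.25 to 12.37 treated. The 4 myeloid markers were dim (percentiles 19.2 to 30.5); CD14 and CSF1R rose, and the summed level was 6.74 to 6.89 untreated and 7.10 to 7.30 treated. Of the 5 T-cell markers CD3E rose and CD247 fell (summed level 7.39 to 7.45 untreated, 7.24 to 7.57 treated), and of 4 stromal or epithelial markers COL1A2 rose (7.53 to 7.73 untreated, 7.75 to 8.02 treated). The myeloid, T-cell and stromal or epithelial markers lay below the median untreated intensity of all genes. Of genes at or below it, 16.5% rose and 3.82% fell. The part of these marker shifts in the phosphatase values was not tested. Treated replicate 3 stood apart, since limma weighted it at 0.376, whereas the remaining arrays had weights of 1.04 to 1.51. In bulk RNA, fewer cells of a type and less RNA per cell cannot be told apart.

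Promoter sequences are shown for the 2 PEST-family genes that rose, PTPN18 and PTPN22, and for the 2 largest falls, PTPN7 and PTPRE, so that the letters around the start sites can be compared. PTPRE has several start sites, which give its receptor and cytosolic forms, and 2 of them are shown; the most upstream of the 3 listed for PTPN7 is shown. Each run holds 250 bases before to 50 after a RefSeq start on GRCh38.p14, written 5′ to 3′ on the gene's strand. Capitals mark matches to 6 motifs, searched on either strand, and overlapping matches were allowed. The E-box read by MYC and its relatives was searched as CACGTG. The core bound by ETS factors, many of which act in lymphocytes, was searched as CCGGAAG. The GC box of housekeeping promoters was searched as GGGCGG, and the box bound by NF-Y is named by its own letters, CCAAT. The core of FOXO factors, which lie downstream of PI3 kinase and AKT, was searched as GTAAACA. The interferon regulatory factor motif is a pair of GAAA blocks with any 2 bases between them. The array does not tell which start was used.
PTPN18 (chr2:130355806-130356105, plus strand): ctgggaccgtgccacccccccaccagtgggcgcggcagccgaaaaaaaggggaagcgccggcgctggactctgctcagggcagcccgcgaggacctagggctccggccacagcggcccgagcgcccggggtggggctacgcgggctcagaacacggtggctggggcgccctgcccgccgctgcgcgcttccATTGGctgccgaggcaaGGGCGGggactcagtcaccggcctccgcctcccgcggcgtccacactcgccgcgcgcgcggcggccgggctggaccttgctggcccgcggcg
PTPN22 (chr1:113871663-113871962, minus strand): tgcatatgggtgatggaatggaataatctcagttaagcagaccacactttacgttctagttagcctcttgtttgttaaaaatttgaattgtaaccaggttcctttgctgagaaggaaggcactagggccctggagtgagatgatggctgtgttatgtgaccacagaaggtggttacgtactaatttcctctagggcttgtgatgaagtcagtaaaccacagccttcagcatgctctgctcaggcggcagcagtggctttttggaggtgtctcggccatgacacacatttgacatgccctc
PTPN7 (chr1:202160553-202160852, minus strand): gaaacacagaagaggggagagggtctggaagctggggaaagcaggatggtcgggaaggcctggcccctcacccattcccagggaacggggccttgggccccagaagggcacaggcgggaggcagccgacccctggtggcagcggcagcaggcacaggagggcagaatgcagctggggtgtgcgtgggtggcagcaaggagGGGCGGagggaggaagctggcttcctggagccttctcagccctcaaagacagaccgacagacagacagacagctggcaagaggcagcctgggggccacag
PTPRE, upstream start (chr10:127906853-127907152, plus strand): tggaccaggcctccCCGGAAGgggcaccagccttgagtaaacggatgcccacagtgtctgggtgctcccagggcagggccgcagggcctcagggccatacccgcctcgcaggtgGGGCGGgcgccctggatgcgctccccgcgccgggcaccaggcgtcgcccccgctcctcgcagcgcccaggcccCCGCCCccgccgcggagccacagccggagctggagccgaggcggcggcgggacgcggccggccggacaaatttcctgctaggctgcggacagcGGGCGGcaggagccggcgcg
PTPRE, a further start (chr10:127987030-127987329, plus strand): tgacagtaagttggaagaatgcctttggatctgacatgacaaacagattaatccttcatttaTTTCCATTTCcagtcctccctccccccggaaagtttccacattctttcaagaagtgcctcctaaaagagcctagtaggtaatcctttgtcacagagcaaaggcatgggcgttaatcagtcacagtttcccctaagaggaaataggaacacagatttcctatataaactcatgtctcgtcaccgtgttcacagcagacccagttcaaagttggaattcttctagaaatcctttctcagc

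The PTPN18 window held 1 GC box and 1 CCAAT match in 77% G and C, whereas the PTPN22 window held no match and 46.7% G and C. The shown PTPN7 window held 1 GC box; of its windows not shown, 1 held a CCAAT match and the other held none of the motifs. The upstream PTPRE window held 1 ETS core and 3 GC boxes, and the further one held the single interferon regulatory factor match found among the phosphatase genes. RefSeq windows were matched for 32 of the 37 genes, 54 windows in all. A GC box was present in 50% of them and in 45% of 35116 windows of all genes, and CCAAT in 27.8% against 34.6%. The ETS core was found in 5.56% against 10.3%, the E-box in 3.70% against 7.26%, the FOXO core in 1.85% against 3.42% and the interferon regulatory factor motif in 1.85% against 3.57%. These matches describe letters and not binding sites.

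PTPN7, PTPN5 and PTPRR encode phosphatases that dock on MAP kinases through a kinase interaction motif. PTPN7 (probe set 7923406), the member expressed in blood cells, read 7.60, 7.29 and 7.43 on the untreated arrays and 6.60, 6.68 and 6.39 on the treated arrays, in log2 intensity. All 3 treated arrays lay below all untreated ones, and the log2 fold change was -0.88 ± 0.11 (SE, adjusted p = 0.000399 in limma). PTPN5, a mainly neuronal member, was dim: it read 5.18, 5.02 and 5.13 untreated and 5.62, 5.18 and 5.65 treated. Treated replicate 2 overlapped the untreated range, and the change of 0.37 ± 0.13 (SE) passed narrowly, at an adjusted p of 0.0477. This call was lost when any 1 array other than treated replicate 2 was left out (adjusted p = 0.0752 to 0.144) and under 3 other settings. PTPRR, also dim, changed by -0.06 (adjusted p = 0.606). Of 7 measured MAP kinases, substrates of these enzymes among them, 3 fell and 0 rose, with a median log2 fold change of 0.005 against 0.02 for all genes. All 3 lay above the median untreated intensity of all genes, where 39% of genes fell, against 21.4% of all genes. None rose at an unadjusted p under 0.05, but after cyclic loess 1 rose and 2 fell. MAPK3, which encodes ERK1, changed by -0.35 ± 0.09, and the stress kinase genes MAPK8 and MAPK13 by -0.73 ± 0.11 and -0.67 ± 0.08 (SE). The MAPK3 call was lost without untreated replicate 1 and after cyclic loess.

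PTPN18, PTPN22 and PTPN12 form the PEST family, whose members act on Src-family kinases and on proteins of the cytoskeleton. PTPN18 (probe set 8045182) read 9.13, 8.95 and 8.86 untreated and 9.61, 9.70 and 9.53 treated. The groups stood apart by 0.41 between their nearest arrays, and the log2 fold change was 0.64 ± 0.09 (SE, adjusted p = 0.00103 in limma). PTPN22 (probe set 7918657), a brake on antigen receptor signalling and a known autoimmunity gene, read 8.45, 8.36 and 8.36 untreated and 8.62, 8.64 and 8.70 treated. Its rise was small, 0.27 ± 0.07 (SE, adjusted p = 0.0206), though the groups did not overlap. The PTPN22 call was lost without untreated replicate 2 or 3 and when array medians were equalised (adjusted p = 0.0751, 0.0761 and 0.086). PTPN12, the broadly expressed member, did not pass: it read 7.15, 7.20 and 7.19 untreated and 6.90, 7.14 and 6.84 treated (-0.22 ± 0.09 SE, adjusted p = 0.0943). It passed as lower without treated replicate 2 (adjusted p = 0.0227) and when array medians were equalised (adjusted p = 0.0394). Of 5 measured partners of this family 3 rose and 0 fell, also at an unadjusted p under 0.05, against 14.2% and 21.4% of all genes. The 3 that rose lay below the median untreated intensity of all genes, PSTPIP2 lowest at 3.69 (percentile 9.11). At or below that median, 16.5% of all genes rose and 3.82% fell. With the dimmest 30% of genes left out, 2 partners rose. When array medians were equalised, 1 rose and 1 fell. Those higher without that scaling were the adaptor genes PSTPIP1, by 0.43 ± 0.09 (SE), BCAR1, by 0.44 ± 0.14, and PSTPIP2, by 0.27 ± 0.09. The BCAR1 and PSTPIP2 calls were each lost without untreated replicate 1, untreated replicate 2 or treated replicate 3, and also when array medians were equalised or after cyclic loess. BCAR1 also lost its call with array weights. PSTPIP2 also lost its call without untreated replicate 3 or treated replicate 1, with the replicate number as a block (adjusted p = 0.0587) and when the prior variance followed intensity (adjusted p = 0.0847).

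**Figure D2:**
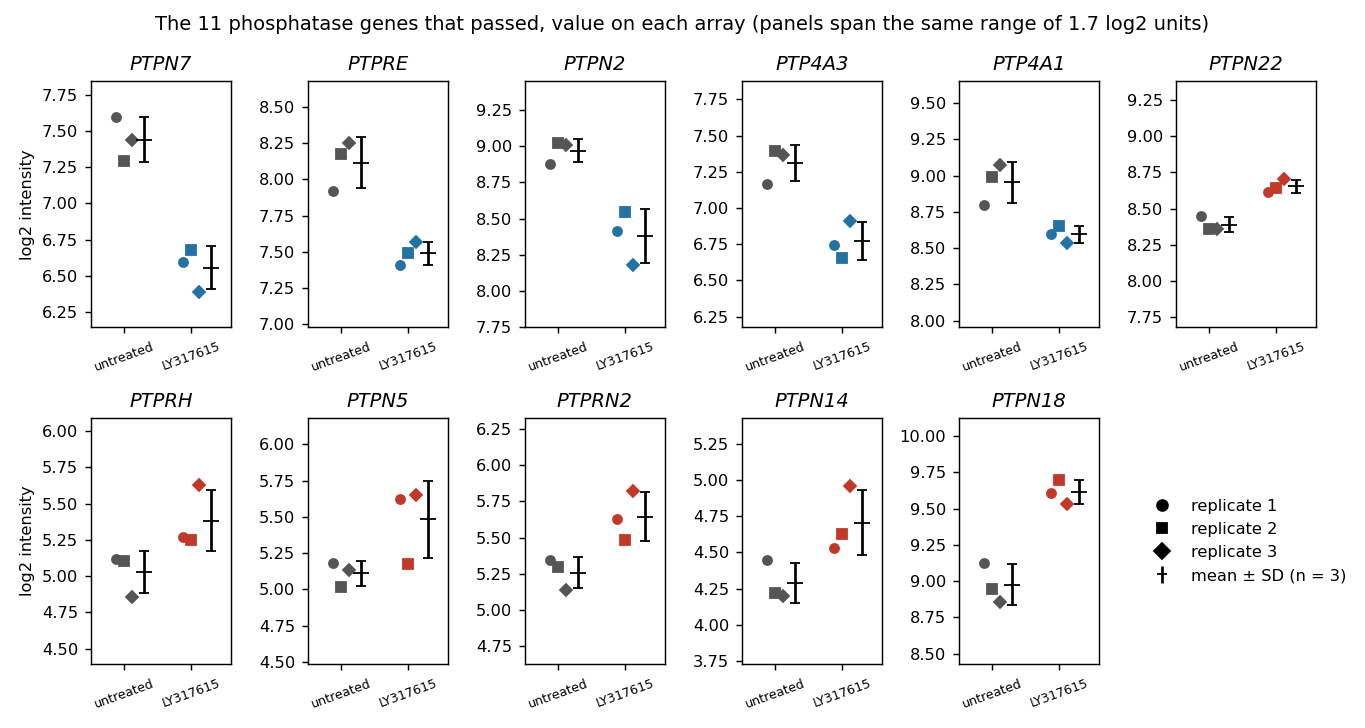
Log2 intensity (y axis) on each array for the 11 phosphatase genes that passed, untreated in grey and LY317615 in colour, with the mean and SD of 3 arrays beside the points and a shared span of the y axis. In 10 of the genes the groups do not overlap; in PTPN5 treated replicate 2 (5.18) lies within the untreated range.

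PTPN2 and PTPN1 encode TC-PTP and PTP1B, close relatives that dephosphorylate JAK kinases. PTPN2 (probe set 8022393) read 8.88, 9.02 and 9.01 untreated and 8.42, 8.55 and 8.18 treated. All 3 treated arrays lay below the untreated ones, and it fell by 0.59 ± 0.10 on the log2 scale (SE, adjusted p = 0.00279 in limma). PTPN1 (probe set 8063394) read 9.41, 9.53 and 9.54 untreated and 9.37, 9.28 and 9.16 treated. The groups of PTPN1 did not overlap either, but its change of -0.22 ± 0.08 (SE) did not pass (adjusted p = 0.0666), and its 95% interval ran from -0.42 to -0.03. PTPN1 passed when the prior variance followed intensity, when array medians were equalised and when the dimmest genes were left out (adjusted p = 0.0142, 0.0289 and 0.0377). The difference between PTPN2 and PTPN1 was not tested. Of 9 measured JAK and STAT genes, 2 rose and 3 fell, with a median of -0.11, against 14.2% and 21.4% of all genes: TYK2 rose by 0.37 ± 0.09 (SE) and STAT6 by 0.33 ± 0.07, while STAT5B changed by -0.48 ± 0.09, STAT3 by -0.37 ± 0.09 and STAT5A by -0.33 ± 0.08. The TYK2 call was lost without untreated replicate 3. That of STAT5A was lost without untreated replicate 2 and after cyclic loess, where 2 genes of this list fell.

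The pair with SH2 domains, which bind phosphorylated tyrosines on other proteins, did not pass. PTPN6 (probe set 7953569) read 8.280, 8.048 and 8.111 untreated and 8.004, 7.913 and 7.781 treated. Its treated arrays lay just below the untreated ones, with a change of -0.25 ± 0.09 (SE, adjusted p = 0.0657), which passed under the same 3 settings as PTPN1 (adjusted p = 0.0229 to 0.038). PTPN11 (probe set 7958846) read 10.23, 10.27 and 10.25 untreated and 10.39, 10.36 and 10.31 treated. This change of 0.10 ± 0.07 (SE, adjusted p = 0.281; 95% interval -0.06 to 0.26) passed after cyclic loess alone (0.23, adjusted p = 0.0214).

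Receptors that recruit these SH2-domain phosphatases moved both ways: of 21 measured, 4 rose and 3 fell, with a median of 0.11, against 14.2% and 21.4% of all genes. CD22, an inhibitory receptor of B cells, changed by -1.16 ± 0.10 (SE), SIGLEC10 of the same family by -0.89 ± 0.07 and SIRPA by -0.45 ± 0.07. PECAM1, an adhesion receptor with inhibitory motifs, rose by 1.12 ± 0.09 on the brighter of its probe sets, and the change on the other was -0.03. The others that rose were FCRL5, by 1.04 ± 0.19, FCRL3, by 0.49 ± 0.10, and FCGR2B, by 0.43 ± 0.08, receptors of the Fc receptor family on B cells. FCRL5 and FCRL3 were dim, at 3.90 and 4.86 untreated (percentiles 11.7 and 26.3 among all genes). When the dimmest 30% of genes were left out, 2 receptors of this list rose. Among 10 adaptor genes that link SHP-2 to Ras, 2 rose and 2 fell (median -0.11). The docking protein gene GAB1 rose by 0.48 ± 0.10 on its brighter probe set and read -0.62 on its other, so its direction depends on the probe set. GAB2 changed by -0.30 ± 0.08, IRS2 by 0.38 ± 0.11 and SOS1 by -0.26 ± 0.08, and each of these 3 calls was lost when untreated replicate 3 was left out, among other arrays. The IRS2 and SOS1 calls were also lost after cyclic loess, and that of IRS2 when array medians were equalised.

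CD45 (PTPRC, probe set 7908553) read 10.61, 10.46 and 10.43 untreated and 10.36, 10.31 and 10.27 treated. The treated arrays lay below the untreated ones by as little as 0.07, and the change of -0.19 ± 0.08 (SE) did not pass (adjusted p = 0.0964). It passed when the prior variance followed intensity (adjusted p = 0.0161) and when array medians were equalised (adjusted p = 0.0311). PTPRCAP, its partner, read 9.07, 8.90 and 8.96 untreated and 9.08, 9.17 and 9.04 treated. The groups overlapped, and its change of 0.12 ± 0.08 (SE, adjusted p = 0.263) passed after cyclic loess alone (0.28, adjusted p = 0.0224). Of 11 measured Src-family kinases and their regulators, a group that holds the kinases CD45 acts on and the kinase CSK, which opposes it, 1 rose and 6 fell, with a median of -0.31 against 0.02 for all genes. All 7 lay above the median untreated intensity of all genes, where 11.9% of genes rose and 39% fell (14.2% and 21.4% over all genes). LYN, the main Src-family kinase of B cells, rose by 0.62 ± 0.09 (SE), whereas LCK changed by -0.95 ± 0.09, FGR by -0.66 ± 0.11 and PAG1, which encodes a membrane anchor of CSK, by -0.75 ± 0.10. These 4 calls held in all 14 alternative settings. Of 10 measured substrates of B-cell receptor signalling, 0 rose (also at an unadjusted p under 0.05, though 1 did when the prior variance followed intensity and with probe sets averaged) and 2 fell, CD79A by -0.28 ± 0.07 and BLNK by -0.27 ± 0.09. The first call was lost without untreated replicate 3, and the second without any 1 array other than untreated replicate 3, with the replicate number as a block (adjusted p = 0.0585) and after cyclic loess (adjusted p = 0.226).

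PTPRE (probe set 7931353), which is made as a receptor and as a cytosolic enzyme, was the receptor-type gene that changed most. It read 7.92, 8.18 and 8.25 untreated and 7.41, 7.49 and 7.57 treated. The groups did not overlap, and the log2 fold change was -0.63 ± 0.10 (SE, adjusted p = 0.00173 in limma). The probe set of its close relative PTPRA also holds VPS16, a gene of endosome traffic. It read 7.004, 6.999 and 6.972 untreated and 7.397, 7.261 and 7.277 treated, a change of 0.32 ± 0.07 (SE, adjusted p = 0.00769 over 1754 probe sets with several gene names, of which 38% passed). That value cannot be assigned to either gene.

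Receptor-type genes other than PTPRC and PTPRE were dim, all 14 of them at or below the median untreated intensity of all genes. Detection calls were not used here, and which of them stood above background is unknown. Among them PTPRN2, which encodes a protein of secretory granules, read 5.34, 5.29 and 5.14 untreated and 5.63, 5.48 and 5.82 treated (0.39 ± 0.10 SE, adjusted p = 0.0182). PTPRH, an epithelial receptor-type gene, read 5.12, 5.10 and 4.86 untreated and 5.27, 5.25 and 5.63 treated (0.36 ± 0.12 SE, adjusted p = 0.0455). Both were highest on treated replicate 3, without which PTPRN2 still passed and PTPRH did not (adjusted p = 0.11). PTPRN2 lost its call without untreated replicate 3 (adjusted p = 0.0682) and after cyclic loess (adjusted p = 0.0517). PTPRH lost it when any 1 array other than treated replicate 2 was left out and under 4 other settings (adjusted p = 0.0507 to 0.148). PTPRF, a cell adhesion phosphatase, missed the threshold at 0.29 ± 0.10 (SE, adjusted p = 0.0501) and passed in 4 alternatives (adjusted p down to 0.0283). PTPRM changed by 0.24 (adjusted p = 0.206) and passed without treated replicate 2 (adjusted p = 0.0344). The remaining 10 (PTPRB, PTPRD, PTPRG, PTPRK, PTPRN, PTPRO, PTPRR, PTPRS, PTPRU and PTPRZ1) had adjusted p-values of 0.107 to 0.986, with PTPRU at 0.21 and PTPRO at -0.12 as their outermost log2 fold changes.

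The PTP4A genes encode small phosphatases linked to growth and magnesium handling. PTP4A3 (probe set 8148501) read 7.17, 7.40 and 7.37 untreated and 6.75, 6.66 and 6.91 treated. It fell by 0.54 ± 0.10 on the log2 scale (SE, adjusted p = 0.00306 in limma), with no overlap of the groups. PTP4A1 (probe set 8120431) read 8.80, 8.99 and 9.07 untreated and 8.60, 8.65 and 8.53 treated. Its fall of 0.36 ± 0.09 (SE, adjusted p = 0.0144) was no longer past the threshold without untreated replicate 2 or 3 and after cyclic loess (adjusted p = 0.051, 0.0589 and 0.0996). PTP4A2 (probe set 7914489) read 11.07, 11.27 and 11.18 untreated and 11.25, 11.09 and 11.26 treated. Its groups overlapped and its change was 0.03 ± 0.09 (SE, adjusted p = 0.832), with a 95% interval of -0.17 to 0.22. The differences among the 3 genes were not tested, and RefSeq lists 7 pseudogenes of PTP4A1 and 2 of PTP4A2 that could share probes with them. PTPN2 and PTPN11, with 2 and 5 listed pseudogenes, are open to the same limit. Of 4 CNNM genes 0 rose (also at an unadjusted p under 0.05) and 2 fell, against 14.2% and 21.4% of all genes. CNNM3 changed by -0.35 ± 0.09 (SE) and CNNM2 by -0.30 ± 0.08, and the CNNM2 call was lost without untreated replicate 2 or 3. CNNM3 and CNNM2 lay above the median untreated intensity of all genes, where 39% of genes fell.

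The non-receptor genes with a FERM domain, which ties proteins to the membrane skeleton, were mostly dim. PTPN14, known as a partner of the growth regulator YAP, read 4.45, 4.22 and 4.20 untreated and 4.53, 4.62 and 4.96 treated. The lowest treated array lay 0.08 above the highest untreated one, and the change was 0.42 ± 0.12 (SE, adjusted p = 0.0269). This call was lost without untreated replicate 2 or 3, without treated replicate 3 and after cyclic loess (adjusted p = 0.0545 to 0.0837), and the gene was left out with the dimmest 30%. PTPN4 read 6.43, 6.41 and 6.27 untreated and 6.61, 6.59 and 6.47 treated (0.19 ± 0.08 SE, adjusted p = 0.105), and it passed with array weights (adjusted p = 0.0484). PTPN3 changed by 0.24 (adjusted p = 0.0851), PTPN13 by -0.20 (adjusted p = 0.0686) and PTPN21 by 0.06 (adjusted p = 0.589). PTPN13 passed with array weights, on equalised array medians and after cyclic loess (adjusted p = 0.0473, 0.0271 and 0.0293).

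The last 3 non-receptor genes did not pass, and the groups overlapped in each. PTPN9, which encodes a phosphatase of secretory vesicles, read 8.48, 8.56 and 8.59 untreated and 8.66, 8.68 and 8.40 treated (0.03 ± 0.09 SE, adjusted p = 0.799). PTPN23, which encodes an endosome sorting protein, read 6.78, 6.69 and 6.85 untreated and 6.80, 6.86 and 6.81 treated (0.05 ± 0.08 SE, adjusted p = 0.601). PTPN20 was the single phosphatase gene with several probe sets, all 4 of them dim, with log2 fold changes of 0.01 to 0.07.

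**Figure D3:**
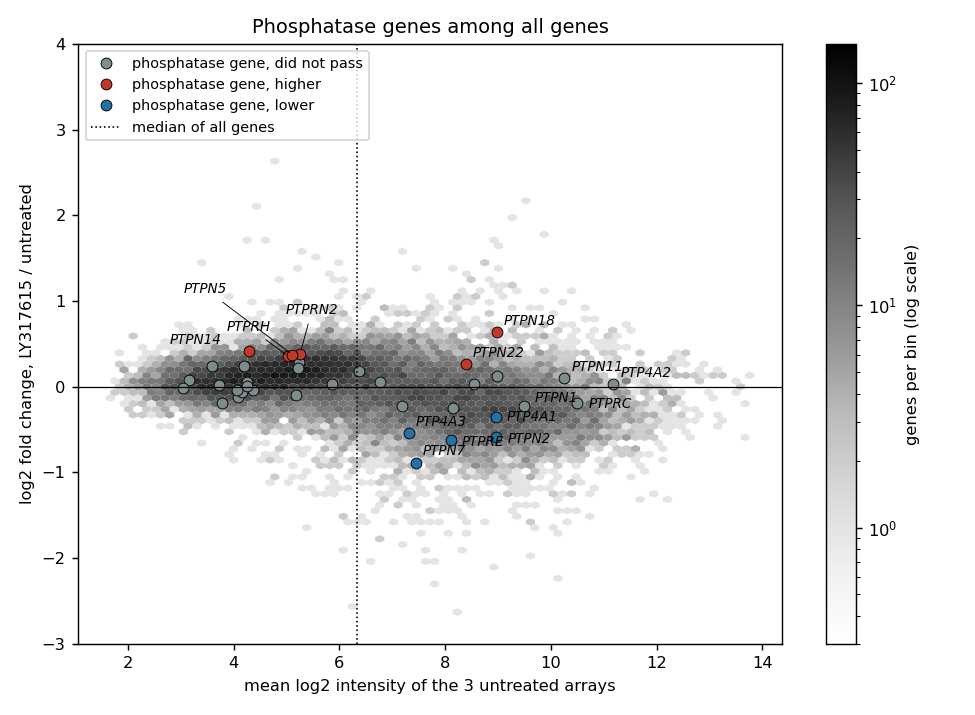
Mean log2 intensity of the 3 untreated arrays (x axis) against log2 fold change (y axis) for all genes, shaded by genes per bin, with the phosphatase genes as points and the median intensity as a dotted line. The 5 phosphatase genes that fell lie to the right of that line, and 4 of the 6 that rose lie to the left.

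Direction and brightness went together over the array. Above the median untreated intensity 11.9% of all genes rose and 39% fell, against 16.5% and 3.82% at or below it. Of the 17 phosphatase genes above that median, 2 rose (PTPN18 and PTPN22) and 5 fell (PTPN7, PTPRE, PTPN2, PTP4A3 and PTP4A1). Of the 20 at or below it, 4 rose (PTPRN2, PTPN14, PTPRH and PTPN5) and 0 fell in limma. PTPN13 was the 1 dim gene that was lower at an unadjusted p under 0.05, and it passed as lower in 3 alternative settings. Median log2 fold changes were -0.19 in the brighter and 0.05 in the dimmer phosphatase genes, against -0.15 and 0.12 for all genes. Treated replicate 3 was the highest treated array in 14 of the 20 dimmer phosphatase genes (55.2% of all dimmer genes) and the lowest in 12 of the 17 brighter ones (63.8% of all brighter genes). Untreated and treated arrays were fully separate for 20 of the 37 genes, a share of 54.1% against 49.8% of all genes, and 10 of these 20 did not pass.

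**Figure D4:**
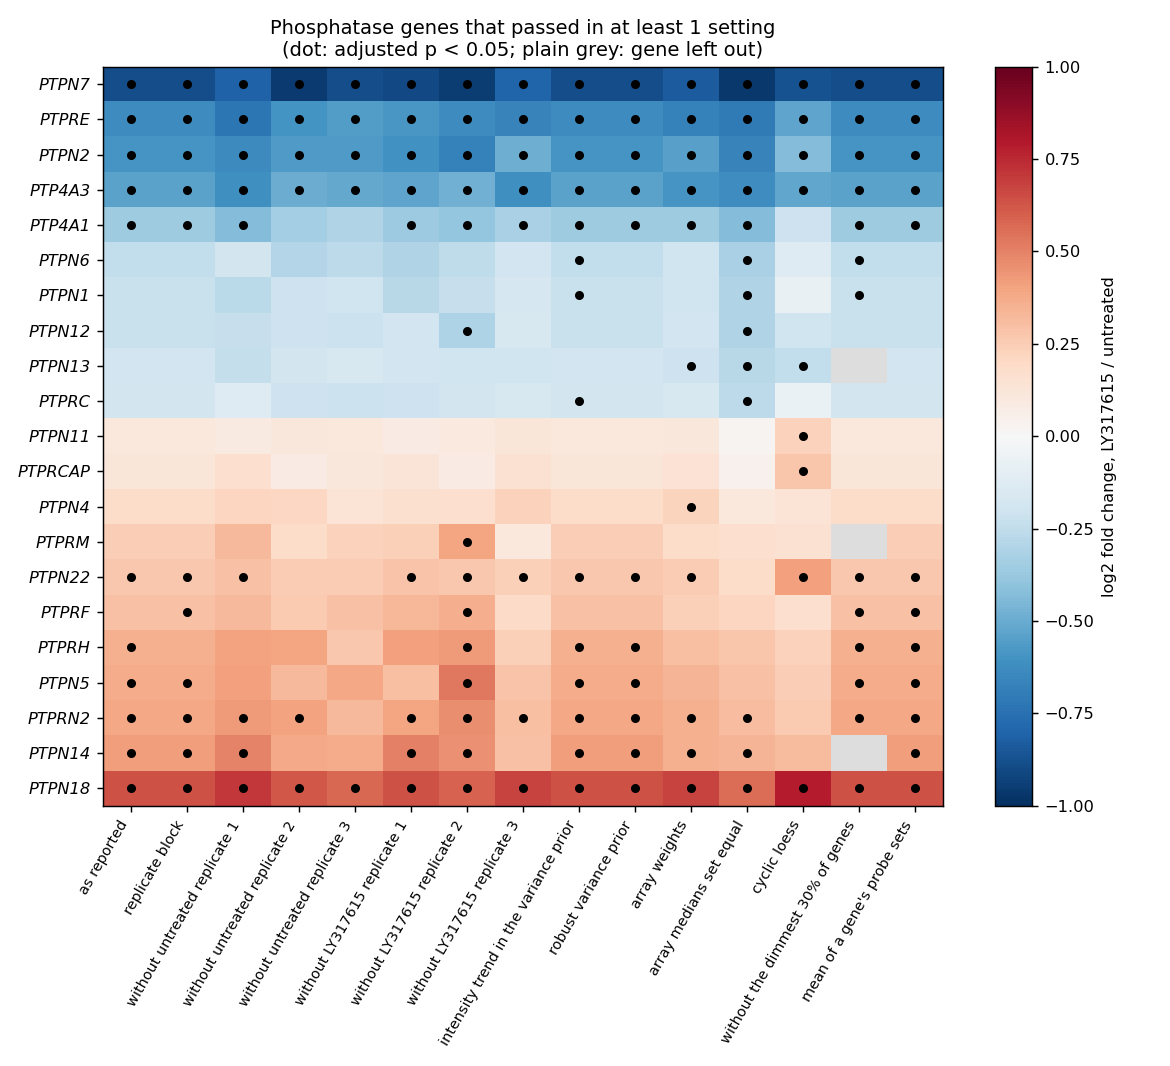
Log2 fold change (colour) of the 21 phosphatase genes that passed in at least 1 setting, by analysis setting (columns), with a dot where the adjusted p was under 0.05. PTPN7, PTPRE, PTPN2, PTP4A3 and PTPN18 carry a dot in every column; PTPRH and PTPN5 lose it in most columns that leave out an array.

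Of the 11 calls, 5 held in all 14 alternative settings: PTPN7, PTPN18, PTPRE, PTPN2 and PTP4A3. Their log2 fold changes ranged from -0.96 to -0.80 for PTPN7, 0.56 to 0.79 for PTPN18, -0.72 to -0.52 for PTPRE, -0.67 to -0.44 for PTPN2 and -0.62 to -0.48 for PTP4A3. A further 10 genes passed in at least 1 alternative but not as reported. None of the 11 calls changed direction in any of these settings.

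Other classes of tyrosine phosphatase and relatives of the family were read from lists of named genes. Of 13 measured genes of other tyrosine phosphatase classes 1 rose and 5 fell, against 14.2% and 21.4% of all genes, with a median of -0.06. The 5 that fell lay above the median untreated intensity, where 39% of all genes fell. EYA3, of a class that acts in the nucleus, changed by -0.82 ± 0.07 (SE), the low-molecular-weight phosphatase gene ACP1 by -0.55 ± 0.07, the mitotic CDC25C by -0.58 ± 0.10 and the mitochondrial PTPMT1 by -0.41 ± 0.08. The others that passed were CDC25A, at -0.46 ± 0.13, and CDC14B, at 0.53 ± 0.12, both of cell-cycle phosphatase classes. The CDC25A call was lost without untreated replicate 1, 2 or 3 and after cyclic loess, where 4 genes of this list fell. Of 14 myotubularins, which share the fold of tyrosine phosphatases but act on or resemble enzymes of phosphoinositides, 1 rose and 3 fell (median -0.16). MTMR4 rose by 0.48 ± 0.08, while MTMR12 changed by -0.51 ± 0.08, MTM1 by -0.40 ± 0.08 and SBF1 by -0.26 ± 0.07; the SBF1 call was lost without any 1 untreated replicate, without treated replicate 2 and after cyclic loess. PRKCB, the gene of protein kinase C beta, was dim (4.99 in both groups) and changed by -0.001 ± 0.078 (adjusted p = 0.992).

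**Figure D5:**
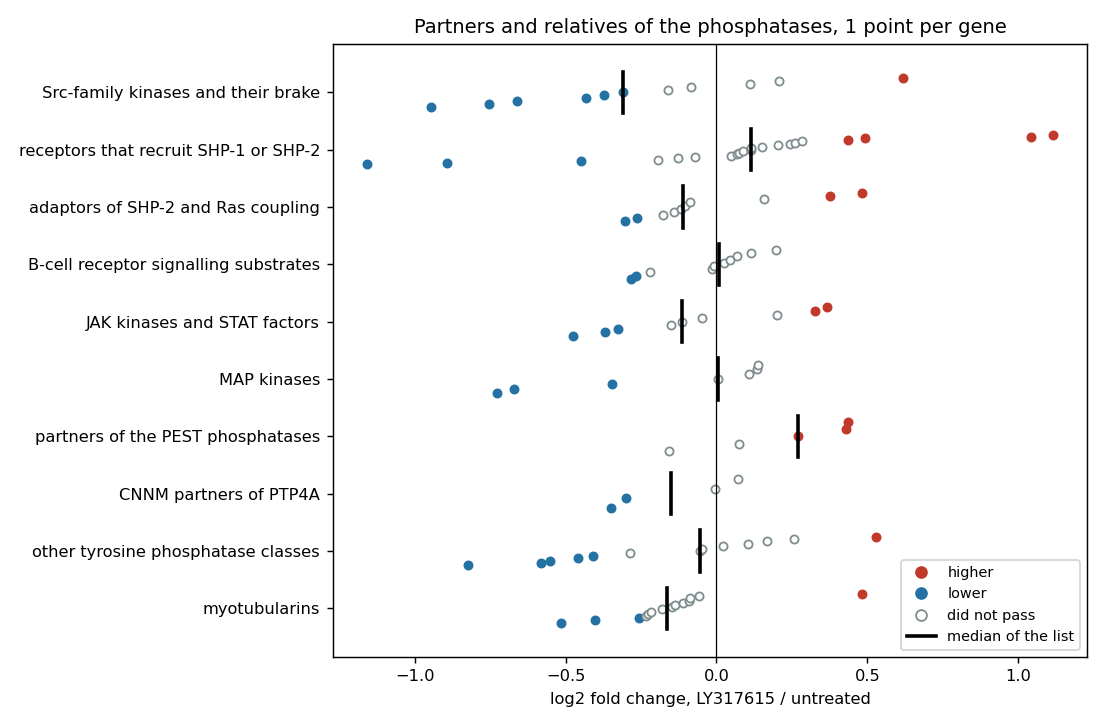
Log2 fold change (x axis) of each measured gene in 10 lists of partners and relatives of the phosphatases (rows), with the list median as a bar; filled points passed an adjusted p of 0.05. List medians run from -0.31 in the Src-family list to 0.27 in the list of PEST partners, and the outermost genes are CD22 at -1.16 and PECAM1 at 1.12.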

How the data were processed

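The authors deposited 1 normalized intensity per probe set and array, which the values show to be on a linear scale. RMA, Affymetrix Expression Console and GCOS 1.4 are named, per the submitters' processing notes; their order is not given in the sources used here. Log2 was taken of all 33297 probe sets without an added constant. Of these, 19460 had 1 gene symbol, 1754 several and 12083 none, and the brightest of each gene was kept. Groups were compared with limma 3.58.1 in R 4.3.3 (moderated t, two-sided, Benjamini-Hochberg adjustment over 18417 genes); ± gives SEs of fold changes, and intervals are unadjusted. No intensity filter was used. Precision is limited by there being 3 arrays a group. The code was tested on simulated data.

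Every phosphatase gene is named; those that passed or lay above the median intensity have values per array. Partner lists give up to 4 members that passed, by smallest adjusted p. FCRL5, FCRL3, FCGR2B, STAT5A, CDC25A and CDC14B were added after their values were seen. For these added genes the alternatives were read only through the counts of their lists. Members, lists and tests were chosen with earlier results of these data known. As alternatives, the replicate number was a block, single arrays were left out, the variance prior was robust or followed intensity, and arrays were weighted. Arrays were also scaled to a common median over all probe sets or by cyclic loess, the dimmest 30% of genes were removed, and probe sets of a gene were averaged. Python 3.11.15 with pandas 2.3.3 and matplotlib 3.10.9 made the tables and figures.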

Additional observations from a re-analysis of the deposited data

Results flagged for a closer look

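The probe set that holds both VPS16 and PTPRA was outside the gene comparisons, and its log2 intensity was 0.32 higher on the treated than on the untreated arrays (6.99 ± 0.02 untreated and 7.31 ± 0.07 treated, SD, n = 3). The probe set of CORO1B and PTPRCAP, also outside them, read 8.27 ± 0.12 untreated and 8.19 ± 0.07 treated.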

How the results depend on the processing

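Phosphatase genes called higher numbered 6, and 3 with the array medians set equal; leaving out single arrays gave 1 to 8. Those called lower numbered 5, 8 when the prior variance followed intensity and 10 with the array medians set equal. Under the other alternatives both counts stayed within 1.5 times these, as did the 4609 to 7160 genes called in all. Among all genes, 2622 were higher and 3946 lower; with array medians set equal 1523 and 4861 were, without untreated replicate 2 there were 1566 higher and without untreated replicate 3 there were 1715. The median log2 fold change of the phosphatase genes (0.03) was negative without treated replicate 3 (-0.01), after cyclic loess (-0.03) and with array medians set equal (-0.05). The log2 fold change of GAB1 changed sign, to -0.067, as the mean of its probe sets, which read opposite ways. The causes of the other shifts were not tested. Of 504 recomputed values for single phosphatase genes, 29 lost a call, 21 gained one and 31 changed sign without passing in either setting. The dim filter removed 14 phosphatase genes. Without the dimmest genes, 2 Src-family genes and 2 genes of other phosphatase classes were higher, up from 1 in each list. Fewer SHP-recruiting receptors were higher, 2 in place of 4. Myotubularins called lower numbered 5 in place of 3, as they did with array medians set equal. Without treated replicate 1, 2 genes of other phosphatase classes were higher. With the replicate number as a block, 6548 genes passed, with 6 phosphatase genes higher and 5 lower: PTPRH lost its call (adjusted p = 0.065) and PTPRF gained one (adjusted p = 0.0465). Of the named partner genes, BLNK and PSTPIP2 lost their calls (adjusted p = 0.0585 and 0.0587). The labels do not say whether same-numbered arrays were paired. Across genes, the deviations of such arrays from the group means correlated at -0.02, 0.09 and 0.07, which cannot settle it. Dim genes are limited by signal over background, which is unknown here.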
